A study of Mus musculus with 12 samples.

Results

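The genes described here are 9 core proteins of heparan sulfate proteoglycans: the syndecan genes Sdc1, Sdc2, Sdc3 and Sdc4, the glypican genes Gpc1, Gpc3, Gpc4 and Gpc6, and Hspg2, which encodes perlecan. They were taken by name from this gene family, with earlier results of these data known, and all 9 were measured among the 24011 genes tested. Each had 1 row in the table. RNA of liver sinusoidal endothelial cells (LSECs) was measured on Affymetrix arrays. LSECs are the perforated endothelium of the liver capillaries that clears waste from the blood, here isolated with magnetic beads against CD146. The 12 arrays cover 4 genotypes with 3 arrays each: wild type (WT), mice lacking stabilin-1 (Stab1KO), mice lacking stabilin-2 (Stab2KO) and mice lacking both (DKO). All mice were C57BL/6J and 3 to 4 months old, and the labels name no treatment. Every array is 1 pool of 3 mice, so n is a number of pools. The knockout alleles, the cells in which the genes are lost and the relation between WT and knockout litters are not in the labels, and colony and genotype cannot be told apart.

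Heparan sulfate proteoglycans are proteins that carry long, negatively charged sugar chains. Syndecans span the plasma membrane and end in a short cytoplasmic tail, glypicans are held to the outer membrane leaflet by a lipid anchor, and perlecan is secreted into basement membranes. Their chains bind growth factors, chemokines, lipases and lipoproteins, and on sinusoidal endothelium they form part of the glycocalyx. Stabilin-1 and stabilin-2 are scavenger receptors of the same cells, and stabilin-2 is known to clear hyaluronan, heparin and other glycosaminoglycans from the blood. The comparisons ask how LSEC expression differs without stabilin-1, without stabilin-2 and without both.

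The receptors themselves followed the labels. Stab1 lay between 12.46 and 12.62 log2 in the 6 arrays of WT and Stab2KO and between 4.98 and 5.45 in the 6 arrays of Stab1KO and DKO. Stab2 lay between 12.99 and 13.09 in WT and Stab1KO and between 5.46 and 7.60 where it was lost. LSEC identity was high throughout: the mean of 14 LSEC markers, led by Ehd3, Clec4g, Oit3 and Fcgr2b, was 12.87 to 12.95 in the 9 arrays of WT and the single knockouts and 12.58 to 12.83 in DKO. DKO replicate 3 stood apart, with a mean of 9 neutrophil markers of 12.43 against 5.29 to 6.74 in the other 11 arrays, so the differences or tests of the members and of the called pathway genes in DKO are also given without it. In these bulk pools, fewer cells of a type and less RNA per cell cannot be told apart. The array median was 5.11 log2, and how much of a value near that level is background is not known.

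Of the 9 proteoglycan genes, Sdc1, Sdc4 and Gpc4 changed and the other 6 were not called in any comparison. Sdc1 rose in Stab2KO and in DKO, Sdc4 rose in DKO against each of the other genotypes, and Gpc4 fell in Stab2KO and in DKO. These changes were between 0.79 and 0.99 in size on the log2 scale, that is, 1.73-fold to 1.99-fold up, or for Gpc4 down to 0.57 and 0.58 of the WT level. A gene was called when the p of limma's moderated test, adjusted by Benjamini-Hochberg over all 24011 genes, was under 0.05. In the F-test over the 3 comparisons against WT, 3 of the 9 genes were called, where 1.62% of all genes were, a description since the family was chosen with earlier results known (adjusted p = 0.0077 for Sdc1, 0.0048 for Sdc4 and 0.011 for Gpc4). Against WT, 0 of 9 were called in Stab1KO, where 0.308% of all genes were. The counts were 2 of 9 in Stab2KO, where 0.296% were, and 3 of 9 in DKO, where 1.8% were. The median log2 difference of the 9 genes from WT was -0.02, 0.04 and 0.00 in Stab1KO, Stab2KO and DKO, beside 0.01, 0.01 and -0.02 over all genes, so the family did not move one way. Without DKO replicate 3 the DKO median was 0.17, for which the median over all genes was not computed. The count was again 2 genes that rose and 1 that fell. The share of all genes called without DKO replicate 3 is not given here, for this count or for later ones. The 3 comparisons against WT share the WT arrays.

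**Figure D1:**
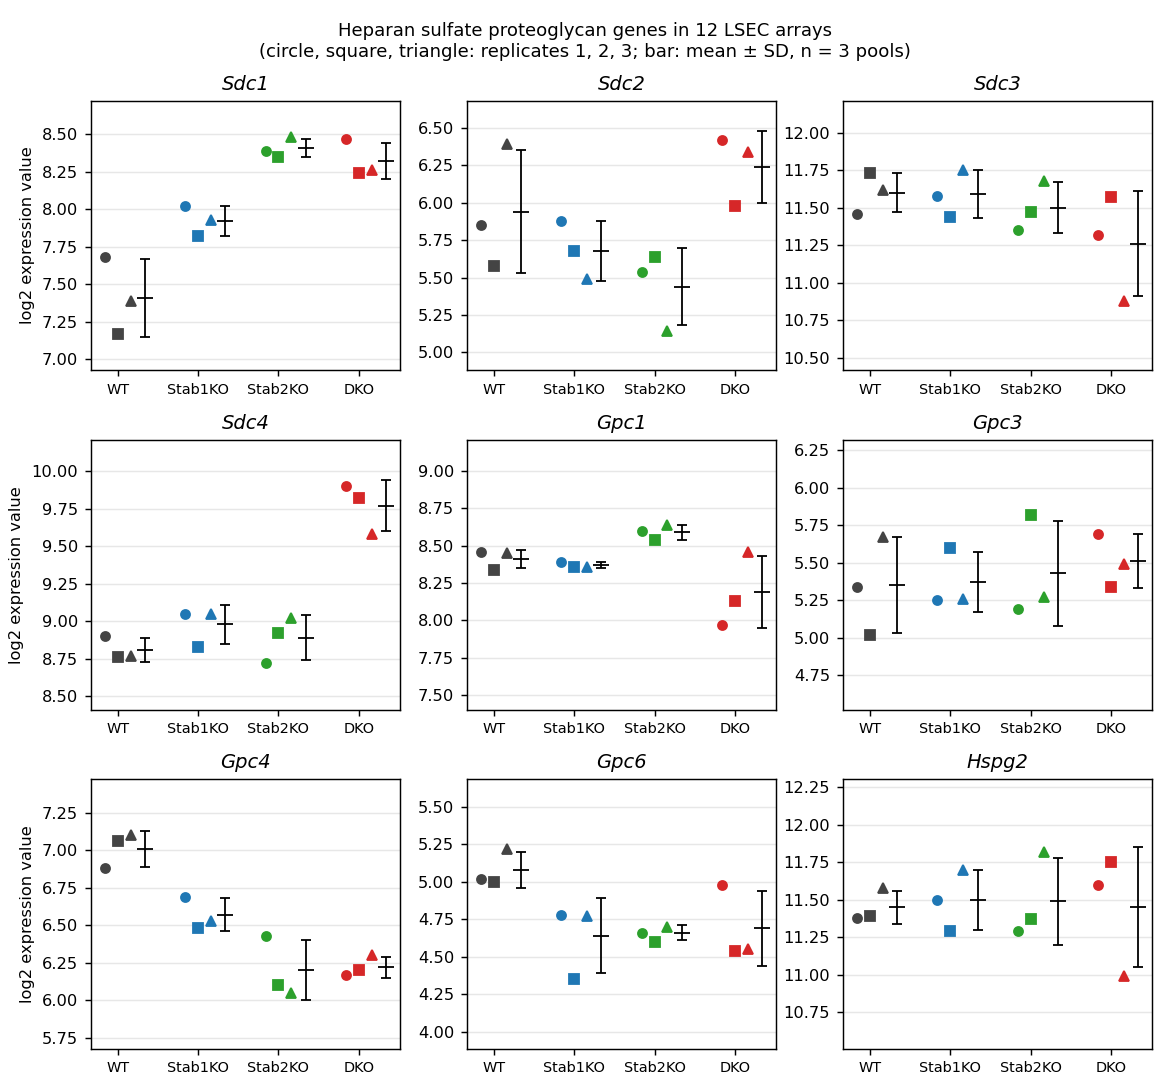
Log2 expression values of the 9 proteoglycan genes (vertical axis, the same span of values in every panel) in the 12 arrays by genotype; circles, squares and triangles are replicates 1, 2 and 3, and bars are the mean ± SD of 3 pools. The WT arrays lie below all 9 knockout arrays for Sdc1 and above all 9 for Gpc4 and Gpc6, and the DKO arrays of Sdc4 (9.58 to 9.90) lie above the other 9 arrays.

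The sequences before the starts of the 3 genes that changed are shown because these are the members on which the results turn. They are the 250 bases before the annotated start, read 5′ to 3′ on the strand of the gene, from RefSeq on GRCm38.p6. The windows of 6 of the 9 genes were analysed here (Sdc1, Sdc3, Sdc4, Gpc3, Gpc4 and Hspg2). The windows are chr12:8771146-8771395 on the plus strand for Sdc1, chr2:164443189-164443438 on the minus strand for Sdc4 and chrX:52164924-52165173 on the minus strand for Gpc4. Capitals mark matches, on either strand, to the GC box GGGCGG, to TATAA, to the AP-1 motif TGANTCA or to the NF-kB motif.
Sdc1: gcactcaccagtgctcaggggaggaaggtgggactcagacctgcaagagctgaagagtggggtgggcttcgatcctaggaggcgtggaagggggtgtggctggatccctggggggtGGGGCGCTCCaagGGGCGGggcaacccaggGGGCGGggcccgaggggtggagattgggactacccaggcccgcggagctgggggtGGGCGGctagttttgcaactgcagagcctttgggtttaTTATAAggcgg
Sdc4: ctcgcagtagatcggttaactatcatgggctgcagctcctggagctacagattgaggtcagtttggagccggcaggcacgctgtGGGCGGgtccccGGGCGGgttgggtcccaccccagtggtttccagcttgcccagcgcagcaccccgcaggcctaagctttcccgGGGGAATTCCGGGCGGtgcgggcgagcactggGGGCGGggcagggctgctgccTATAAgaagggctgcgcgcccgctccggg
Gpc4: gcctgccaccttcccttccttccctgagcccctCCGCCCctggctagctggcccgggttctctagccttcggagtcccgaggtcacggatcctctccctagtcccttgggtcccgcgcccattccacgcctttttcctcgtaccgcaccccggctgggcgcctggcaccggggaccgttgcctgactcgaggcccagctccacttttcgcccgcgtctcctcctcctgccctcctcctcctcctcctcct
The Sdc1 window held 3 GC boxes, TATAA in both orientations overlapping within 11 bases of the start, and 1 NF-kB match. The Sdc4 window held 4 GC boxes, 1 TATAA that begins 29 bases before the start, and 1 NF-kB match whose end adjoins a GC box. The Gpc4 window held 1 GC box, on the opposite strand, and none of the other motifs. The AP-1 letters were in none of the 3 windows. Of all 32851 such windows, 32.7% held a GC box, 22.8% TATAA, 6.75% the AP-1 motif and 7.25% the NF-kB motif. The 3 genes that changed were 66.0%, 68.0% and 68.4% G and C, against a median of 52.4% over all windows. The windows of Sdc3, Gpc3 and Hspg2, which were not called, held 3, 3 and 5 GC boxes and were 76.4%, 71.6% and 70.0% G and C, and none of the other motifs.

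Sdc1 encodes syndecan-1, the syndecan best known from epithelia and plasma cells, whose shed ectodomain is a marker of glycocalyx damage. In WT it measured 7.68, 7.17 and 7.39 log2 in replicates 1, 2 and 3, and in Stab1KO 8.02, 7.82 and 7.93. In Stab2KO it measured 8.39, 8.35 and 8.48, and in DKO 8.47, 8.24 and 8.26. All 9 knockout arrays thus lay above all 3 WT arrays, an arrangement that 0.429% of all genes showed in this direction. Sdc1 rose by 0.99 ± 0.12 (SE) in Stab2KO (95% confidence interval 0.72 to 1.26, limma adjusted p = 0.009) and by 0.91 ± 0.12 in DKO (0.64 to 1.18, adjusted p = 0.0054), or by 0.94 without DKO replicate 3 (adjusted p = 0.0098). The exact two-sided permutation p was 0.1 for each, the smallest that 3 against 3 arrays allow.

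The order of the Sdc1 means was WT (7.41 ± 0.26, SD, n = 3), Stab1KO (7.92 ± 0.10), DKO (8.32 ± 0.12) and Stab2KO (8.41 ± 0.06). The Stab1KO arrays lay between those of WT and those of the other knockouts without overlapping either, but none of these neighbouring steps was called: Stab1KO differed from WT by 0.51 ± 0.12 (limma adjusted p = 0.36) and DKO from Stab1KO by 0.40 ± 0.12 (adjusted p = 0.14). Between DKO and Stab2KO the difference was -0.08, with an interval of -0.35 to 0.19. The DKO value was 0.59 ± 0.17 below the sum of the 2 single-knockout differences, which did not pass (adjusted p = 0.19). With only the 6 arrays compared in the fit, the rise in Stab2KO kept its size and lost the call (adjusted p = 0.082), as did that in DKO (adjusted p = 0.076).

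Markers of cell types that can express Sdc1 moved in part with it. The mean of 10 large-vessel endothelial markers, led by Ltbp4, Clu, Rspo3 and Selp, was 9.39 to 10 in WT, 9.91 to 10.22 in Stab1KO, 10.03 to 10.13 in Stab2KO and 10.27 to 10.73 in DKO. Of these 10 genes, 1 rose in Stab2KO and 3 in DKO, or 4 without DKO replicate 3. Over all genes 0.0833% rose in Stab2KO and 0.754% in DKO. The mean of 6 bile duct markers, led by Muc1, Sox9, Epcam and Krt7, was 5.80 to 6.36 in WT and 5.75 to 6.34 in Stab1KO. This list was at 6.01 to 6.42 in Stab2KO, overlapping WT, and at 6.99 to 7.49 in DKO. The mean of 9 B and plasma cell markers was 6.07 to 6.49 in WT and 6.18 to 6.35 in Stab1KO. That mean was 6.49 to 6.62 in Stab2KO and 6.34 to 6.39 in DKO. The mean of 6 mesothelial markers was 6.32 to 6.67 in WT and 6.54 to 7.02 in Stab1KO. It was 6.6 to 6.93 in Stab2KO and 6.86 to 7.09 in DKO, and limma called 0 of these 6 genes against WT. The mean of 9 hepatocyte markers overlapped between all genotypes. The part of these cells in the Sdc1 difference was not tested.

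The genes whose pattern over the 12 arrays was most like that of Sdc1 were Sncg, Cd34 and Ehd2. Likeness was the root mean square difference between the values of 2 genes after each gene's mean was subtracted, and it was 0.141, 0.156 and 0.160 log2. Genes picked this way, here and for Sdc4 and Gpc4, follow the member by that choice. Their calls are therefore descriptions. Sncg, the gamma-synuclein gene, measured 6.95, 7.42, 8.04 and 7.86 in WT, Stab1KO, Stab2KO and DKO, and rose in 2 knockouts (limma adjusted p = 0.041 in Stab2KO and 0.036 in DKO). Cd34, a sialomucin gene of continuous endothelium that is also in the large-vessel list, measured 8.63, 8.99, 9.26 and 9.56 and rose in DKO (limma adjusted p = 0.0057). Ehd2, which encodes an ATPase at the necks of caveolae, measured 7.62, 7.99, 8.49 and 8.63 and rose in DKO (adjusted p = 0.021). The Sncg call in Stab2KO was lost in 12 of 20 alternatives and that in DKO in 10, and the Ehd2 call without DKO replicate 1 or WT replicate 2 or 3 (adjusted p = 0.059, 0.085 and 0.074). With only the compared arrays all 4 calls were lost.

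Sdc4 encodes syndecan-4, a widely expressed syndecan of focal adhesions that binds fibronectin together with integrins. It measured 8.90, 8.76 and 8.77 in the WT replicates, 9.05, 8.83 and 9.05 in Stab1KO, and 8.72, 8.92 and 9.02 in Stab2KO. In DKO it measured 9.90, 9.82 and 9.58. The DKO arrays stood alone: each lay above the other 9, as did those of 2.54% of all genes, while the other 3 genotypes overlapped. Sdc4 rose in DKO by 0.96 ± 0.11 against WT (95% confidence interval 0.72 to 1.20, limma adjusted p = 0.0021), by 0.79 ± 0.11 against Stab1KO (adjusted p = 0.015) and by 0.88 ± 0.11 against Stab2KO (adjusted p = 0.0074). It was the only one of the 9 genes called in either comparison of DKO with a single knockout, where 0.945% of all genes were called against Stab1KO and 3.42% against Stab2KO. The exact permutation p of each was 0.1, the smallest possible.

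The single losses left Sdc4 near WT, with differences of 0.17 (-0.08 to 0.41) in Stab1KO and 0.08 (-0.17 to 0.32) in Stab2KO. The DKO difference was larger than the sum of the single ones by 0.72 ± 0.16 (95% confidence interval 0.37 to 1.06). This departure from additivity did not pass over all genes (limma adjusted p = 0.12). By limma 0 of the 9 genes passed it, where 0.05% of all genes did, and 6 had an unadjusted p under 0.05, where 12.5% of all genes did. It passed without DKO replicate 3, at 0.81 (adjusted p = 0.049), and with array weights, at 0.79 (adjusted p = 0.032). The rise against WT held the call in all 20 alternatives run. The call against Stab1KO was lost without Stab1KO replicate 2 or 3 (adjusted p = 0.070 and 0.059), and with only the arrays compared (adjusted p = 0.12), and the call against Stab2KO was lost with only the arrays compared (adjusted p = 0.077).

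Other lists were also higher in DKO. The mean of 12 immediate early genes, led by Dusp1, Jun, Fos and Zfp36, was 11.80 to 12.26 in DKO against 10.65 to 11.24 in WT, 10.5 to 10.91 in Stab1KO and 10.79 to 11.67 in Stab2KO. Of these, 4 rose in DKO against WT, where 0.754% of all genes did, and 3 did without DKO replicate 3. Of the 6 bile duct markers 4 rose, and 1 did without that array. Sdc4 in DKO replicate 3, the array rich in neutrophil transcripts, was the lowest of the 3 DKO values, and the DKO difference from WT was 0.96 with that array and 1.05 without it (limma adjusted p = 0.0015). The large-vessel endothelial list also separated DKO, at 10.27 to 10.73, from the other 9 arrays, of which the highest was 10.22. The part of the immediate early response, of bile duct cells and of large-vessel endothelium in the Sdc4 difference was not tested.

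The genes most like Sdc4 in pattern were Pcf11, Mboat1 and Gucy1b1, at root mean square differences of 0.143, 0.145 and 0.148 log2. Pcf11 encodes a factor of messenger RNA 3′ end formation, Mboat1 a lysophospholipid acyltransferase and Gucy1b1 the beta subunit of soluble guanylate cyclase, the nitric oxide receptor. They rose in DKO by 0.63, 0.78 and 0.91 (limma adjusted p = 0.02, 0.018 and 0.026), and their differences in the single knockouts lay between -0.11 and 0.27. Each of these 3 calls was lost without WT replicate 2, WT replicate 3 or DKO replicate 1 and with only the compared arrays (adjusted p = 0.051 to 0.10), and those of Pcf11 and Gucy1b1 also without WT replicate 1 or DKO replicate 2 (adjusted p = 0.054 to 0.073).

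Gpc4 encodes glypican-4, which modulates growth factor signalling and can be released from its lipid anchor. It measured 6.88, 7.06 and 7.10 in the WT replicates and 6.69, 6.48 and 6.53 in Stab1KO. In Stab2KO it measured 6.43, 6.10 and 6.05, and in DKO 6.17, 6.20 and 6.30. The WT arrays lay above all 9 knockout arrays, as did those of 0.829% of all genes, and the Stab1KO arrays lay above those of Stab2KO and DKO. Gpc4 fell by 0.82 ± 0.11 in Stab2KO (95% confidence interval -1.06 to -0.57, limma adjusted p = 0.012) and by 0.79 ± 0.11 in DKO (-1.04 to -0.55, adjusted p = 0.0061, or by 0.83 without DKO replicate 3, adjusted p = 0.01), each with an exact permutation p of 0.1.

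The order of the Gpc4 means was WT (7.01 ± 0.12, SD, n = 3), Stab1KO (6.57 ± 0.11), DKO (6.22 ± 0.07) and Stab2KO (6.20 ± 0.20), the reverse of that of Sdc1. As for Sdc1, the intermediate level of Stab1KO was not called against either neighbour: it differed from WT by -0.45 ± 0.11 (limma adjusted p = 0.39) and DKO differed from it by -0.34 ± 0.11 (adjusted p = 0.16). DKO and Stab2KO differed by 0.03 (-0.22 to 0.27). The call in Stab2KO was lost without WT replicate 2, WT replicate 3 or Stab2KO replicate 2 (adjusted p = 0.071, 0.070 and 0.065) and with only the arrays compared (adjusted p = 0.12), while that in DKO held in all 20 alternatives run.

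Genes of hepatic stellate cells, pericytes that store vitamin A, were also below WT in all 3 knockouts. The mean of 12 stellate markers, led by Dcn, Rgs5, Lrat and Colec11, was 7.65 to 8.17 in WT, 6.05 to 6.40 in Stab1KO, 6.59 to 6.67 in Stab2KO and 6.08 to 6.35 in DKO. Of the 12, 6 fell in Stab1KO, 5 in Stab2KO and 7 in DKO, or 6 without DKO replicate 3. Over all genes 0.279%, 0.212% and 1.05% fell in Stab1KO, Stab2KO and DKO. The median log2 difference of the stellate list from WT was -1.86 in Stab1KO, -1.23 in Stab2KO and -1.11 in DKO, or -1.17 without DKO replicate 3. The mean of 10 Kupffer cell markers was 7.51 to 9.65 in WT, 8.24 to 9.23 in Stab1KO, 7.17 to 7.58 in Stab2KO and 7.98 to 9.22 in DKO. The mean of 8 smooth muscle and portal fibroblast markers was 5.4 to 5.44 in WT, 5.4 to 5.6 in Stab1KO, 5.6 to 6.24 in Stab2KO and 5.87 to 6.22 in DKO. The part of these cells in the Gpc4 difference was not tested.

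The genes most like Gpc4 in pattern were Pde8b, Gpat2 and Nkain2, at root mean square differences of 0.178, 0.183 and 0.189 log2. Their means lay between 3.81 and 4.65 in every genotype, below the array median, where background is not separated from signal. Pde8b, a cyclic AMP phosphodiesterase gene, and Gpat2, a glycerol-phosphate acyltransferase gene, fell in DKO by 0.56 and 0.53 (limma adjusted p = 0.023 and 0.036), and both calls were lost without WT replicate 2 or 3 or DKO replicate 1 or 2 and with only the compared arrays (adjusted p = 0.051 to 0.15). Gpat2 lost it also in 5 other alternatives, among them the replicate block (adjusted p = 0.061) and the omission of DKO replicate 3 (adjusted p = 0.076). Nkain2 differed by -0.45 (adjusted p = 0.083).

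**Figure D2:**
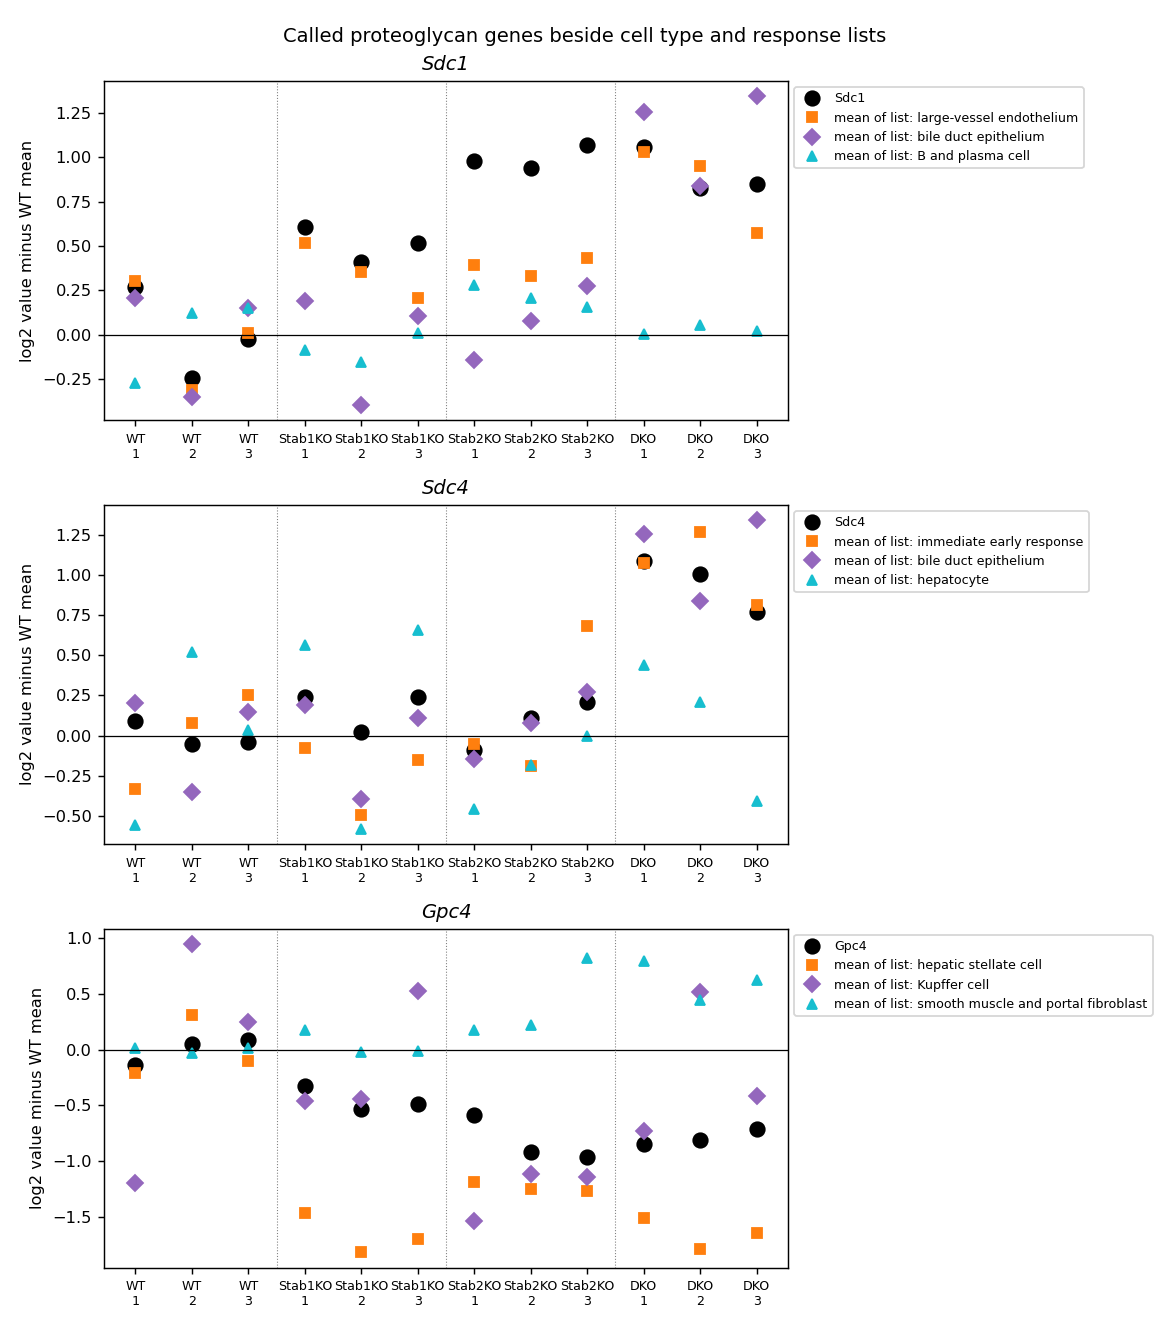
Values of Sdc1, Sdc4 and Gpc4 (black) and the means of marker or response lists (coloured) in each of the 12 arrays, all as log2 differences from the WT mean (vertical axis); dotted lines separate genotypes. In Stab2KO, Sdc1 (8.35 to 8.48), the large-vessel list and the B and plasma cell list are above every WT array, and the bile duct list overlaps WT. Sdc4, the immediate early list and the bile duct list are highest in DKO, and the hepatocyte list overlaps between genotypes. The stellate list is lower than WT in all 9 knockout arrays, as Gpc4 is. The Kupffer cell list overlaps WT, and the smooth muscle and portal fibroblast list is above WT in Stab2KO and DKO.

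The other syndecans were not called. Sdc2 encodes syndecan-2, the syndecan of fibroblasts and of other mesenchymal cells, and measured 5.58 to 6.39 in WT, 5.49 to 5.88 in Stab1KO, 5.14 to 5.64 in Stab2KO and 5.98 to 6.42 in DKO. The DKO arrays lay above those of both single knockouts while WT overlapped all 3 groups. Sdc2 was 0.80 ± 0.21 higher in DKO than in Stab2KO (95% confidence interval 0.34 to 1.27, limma adjusted p = 0.065), and passed at adjusted p = 0.049 when genes of low signal were left out and at 0.0499 without WT replicate 3. Its differences from WT were -0.26, -0.50 and 0.30 in Stab1KO, Stab2KO and DKO, none of them called (adjusted p = 1.0, 0.61 and 0.52), and that in DKO was 0.26 without DKO replicate 3. Its departure from additivity was 1.06 ± 0.30 (adjusted p = 0.17).

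Sdc3 encodes syndecan-3, best known from neurons. It measured 11.46 to 11.73 in WT, 11.44 to 11.75 in Stab1KO and 11.35 to 11.68 in Stab2KO, which overlap throughout. In DKO it measured 11.32, 11.57 and 10.88, and the lowest of these was DKO replicate 3. The difference of DKO from WT was -0.35 (95% confidence interval -0.71 to 0.02, limma adjusted p = 0.32), and -0.16 without that array.

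Among the glypicans, Gpc1 encodes glypican-1, which can act as a co-receptor for fibroblast growth factors. It measured 8.34 to 8.46 in WT, 8.36 to 8.39 in Stab1KO and 8.54 to 8.64 in Stab2KO. In DKO it measured 7.97, 8.13 and 8.46. The Stab2KO arrays lay above all 9 others, as did those of 1.85% of all genes, yet Gpc1 differed from WT there by 0.18 (-0.06 to 0.42, limma adjusted p = 0.77). DKO was below Stab2KO by 0.41 ± 0.11 without passing (adjusted p = 0.064). Without DKO replicate 3, the highest DKO value, the difference of -0.54 passed (adjusted p = 0.011), and it passed with array weights, at -0.49 (adjusted p = 0.0101). The difference of DKO from WT was -0.23 (adjusted p = 0.32), and -0.36 without DKO replicate 3, which did not pass (adjusted p = 0.052). With array weights that difference from WT was -0.32 and passed (adjusted p = 0.044).

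Gpc3 is the neighbour of Gpc4 on the X chromosome. This gene, a glypican gene known from fetal liver and hepatocellular carcinoma, measured 5.02 to 5.67 in WT, 5.25 to 5.60 in Stab1KO, 5.19 to 5.82 in Stab2KO and 5.34 to 5.69 in DKO. The 4 genotypes overlapped, and the differences from WT were 0.03 (-0.41 to 0.47), 0.08 (-0.36 to 0.52) and 0.16 (-0.28 to 0.61), the last 0.17 without DKO replicate 3. The Gpc4 differences of -0.45, -0.82 and -0.79 lay below these intervals, although the difference between the genes was not itself tested. The Gpc3 values lie near the array median.

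Gpc6 encodes glypican-6, a glypican of mesenchymal tissues. It measured 5.02, 5.0 and 5.22 in the WT replicates, and the highest of the 9 knockout arrays was 4.98, in DKO replicate 1. The WT arrays were thus above all knockout arrays, as for Gpc4. The differences from WT were -0.44, -0.43 and -0.39 in Stab1KO, Stab2KO and DKO (limma adjusted p = 0.93, 0.47 and 0.20), so none was called, nor was any under the 20 alternatives run for it. The DKO difference was -0.32 without DKO replicate 3. The unadjusted p-values were 0.01, 0.013 and 0.019. These levels are near or below the array median, and the stellate markers were lower in the same 9 arrays. Its annotated neighbour Gpc5, another glypican gene, had means of 3.99 to 4.09.

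Hspg2 encodes perlecan, a basement membrane proteoglycan made by endothelium. It measured 11.38 to 11.58 in WT, 11.29 to 11.70 in Stab1KO, 11.29 to 11.82 in Stab2KO and 11.60, 11.75 and 10.99 in DKO. The genotypes overlapped, and all 3 intervals of the difference from WT spanned 0, from -0.40 to 0.49 in each single knockout and from -0.44 to 0.44 in DKO (limma adjusted p = 1.0, 0.99 and 1.0). The low value in DKO is replicate 3, and without it DKO was 0.22 above WT (adjusted p = 0.62).

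**Figure D3:**
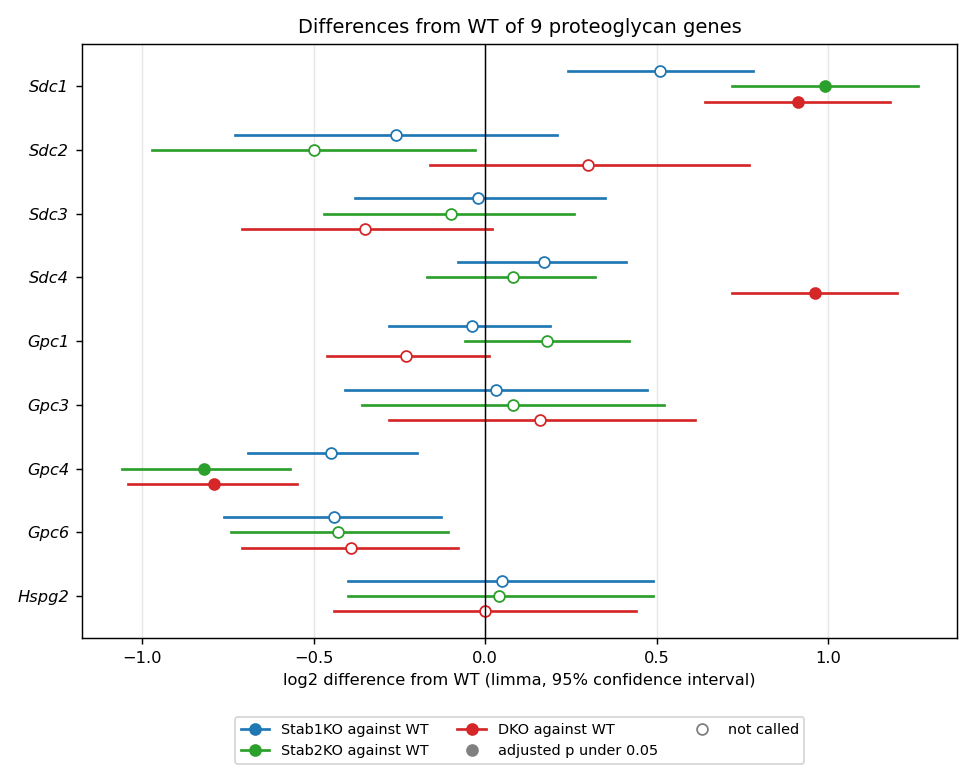
Log2 differences from WT (horizontal axis) with 95% confidence intervals for the 9 genes in Stab1KO, Stab2KO and DKO; filled points have an adjusted p under 0.05. The 5 filled points are Sdc1 and Gpc4 in Stab2KO and Sdc1, Sdc4 and Gpc4 in DKO, and the intervals of Gpc6 lie below 0 in all 3 knockouts although none was called.

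The direct comparison of the single knockouts called 0 of the 9 genes, where 0.108% of all genes were called. By limma 2 genes had an unadjusted p under 0.05, where 7.07% of all genes did: Sdc1 (0.49 ± 0.12, adjusted p = 0.36) and Gpc4 (-0.37 ± 0.11, adjusted p = 0.49). That Sdc1 and Gpc4 passed against WT in Stab2KO and not in Stab1KO therefore does not show that the single losses differ. For the comparison of Stab1KO with WT, 3 of the 9 genes had an unadjusted p under 0.05, where 3.91% of all genes did. These were Sdc1, Gpc4 and Gpc6, and the arrays of the same 3 did not overlap, where 10.1% of all genes did not.

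The enzymes and partners of the family were described through 7 lists of 96 genes, of which 94 were measured. In Stab1KO 0 rose and 3 fell, or 3.19% of them, in Stab2KO 0 rose and 4 fell, or 4.26%, and in DKO 3 rose and 9 fell, or 12.8%. Over all genes, 0.0292% rose and 0.279% fell in Stab1KO, 0.0833% rose and 0.212% fell in Stab2KO, and 0.754% rose and 1.05% fell in DKO. The lists were chosen with earlier results of these data known, so the shares are descriptions.

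Chain synthesis begins with a linker sugar on the core protein. Of 12 genes of linker and chain synthesis, 0 rose and 1 fell in DKO and 0 were called in the single knockouts. B4galt7, a linker galactosyltransferase gene, fell by 0.41 ± 0.08 (limma adjusted p = 0.024), with a difference of -0.37 without DKO replicate 3, and lost the call without DKO replicate 1 or 3, without any 1 of the 3 WT arrays, with trend and robust options and with only the arrays compared (adjusted p = 0.051 to 0.11). Without DKO replicate 3 the list instead held 1 gene that rose, Ext1, a chain polymerase gene, at 0.36 (adjusted p = 0.047). With all arrays Ext1 differed by 0.19 ± 0.12 in DKO and was not called (limma adjusted p = 0.47). Its values under the other alternatives were not looked at. The median of the list was 0.02, 0.05 and -0.11 in Stab1KO, Stab2KO and DKO. Of 21 measured genes of sulfation and epimerization, 1 rose in DKO. Hs3st1, which encodes the 3-O-sulfotransferase that makes antithrombin-binding heparan sulfate, measured 7.47 in WT, 8.31 in Stab1KO, 8.33 in Stab2KO and 8.68 in DKO. It rose by 1.21 ± 0.20 in DKO (adjusted p = 0.016), or 1.22 without DKO replicate 3 (adjusted p = 0.027), with 0.85 and 0.86 in the single knockouts not passing (adjusted p = 0.31 and 0.18). The call in DKO was lost without DKO replicate 1 or WT replicate 2 or 3 (adjusted p = 0.051, 0.068 and 0.068) and with only the arrays compared (adjusted p = 0.10).

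Of 10 measured genes of chain breakdown, limma called 0 in the 3 comparisons against WT, with 1, 2 and 5 at an unadjusted p under 0.05, where 3.91%, 7.62% and 16.7% of all genes were, and the medians were 0.02, 0.02 and -0.26. Hpse2, which encodes an inactive relative of heparanase, differed most. It differed by -0.97 in Stab1KO, -0.61 in Stab2KO and -0.94 in DKO, each ± 0.22 (limma adjusted p = 0.25, 0.5 and 0.059). Without DKO replicate 3 the Hpse2 difference in DKO was -1.02 (adjusted p = 0.072). In DKO Hpse2 passed under 6 other settings of the same threshold, among them a block for the replicate number (adjusted p = 0.021). Sgsh, a lysosomal sulfamidase gene, differed by -0.36 ± 0.12 in DKO (adjusted p = 0.15). Of 8 other proteins that can carry heparan sulfate, limma called 0, with 0, 0 and 3 at an unadjusted p under 0.05, against the same shares of all genes, and 1 rose without DKO replicate 3. That gene was Agrn, which encodes agrin, a basement membrane proteoglycan like perlecan: it differed from WT by 0.58 ± 0.14 (adjusted p = 0.072), and by 0.78 without DKO replicate 3 (adjusted p = 0.003). Cd44, the hyaluronan receptor gene, differed by 1.5 ± 0.64 (adjusted p = 0.27), and by 0.57 without that array.

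Of 12 genes of shedding and adaptor proteins, 1 fell in each single knockout and 2 in DKO. Mmp2, a matrix protease gene, measured 5.55 in WT, 4.39 in Stab1KO, 4.78 in Stab2KO and 4.72 in DKO, and fell in all 3 (limma adjusted p = 0.0016, 0.029 and 0.0081), the call in Stab2KO being lost with a block for the replicate number (adjusted p = 0.082) and without any 1 of 8 arrays, and that in DKO with only the compared arrays (adjusted p = 0.067). Without DKO replicate 3 the Mmp2 difference in DKO was -0.94 (limma adjusted p = 0.003). The Mmp2 means of the knockouts lie below the array median, where background is not separated from signal. Gipc1, which encodes an adaptor for syndecan-4 and other receptors, fell by 0.45 ± 0.07 in DKO (adjusted p = 0.011), or by 0.44 without DKO replicate 3 (adjusted p = 0.023), and lost the call without WT replicate 3 (adjusted p = 0.061) and with only the arrays compared (adjusted p = 0.072). Of 15 basement membrane partners of perlecan, 1 fell in each single knockout, and 1 rose and 4 fell in DKO. There 14 of 15 were below WT, some at only -0.03 to -0.01, and the median was -0.28, beside -0.02 over all genes. The share of all genes below WT was not computed. Without DKO replicate 3, 0 rose and 2 fell, 10 of 15 were below WT and 5 above, and the median was -0.18, so the count of 14 rests on that array.

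Ecm1, which encodes a matrix protein that binds perlecan, measured 11.11 in WT, 10.27 in Stab1KO, 10.42 in Stab2KO and 10.11 in DKO and fell in all 3 (limma adjusted p = 0.0049, 0.021 and 0.00096), the call in Stab2KO being lost without WT replicate 1 or 2 or any of the 3 Stab2KO arrays (adjusted p = 0.065 to 0.13) and with only the arrays compared (adjusted p = 0.062). In DKO Ecm1 differed by -0.88 without DKO replicate 3 (adjusted p = 0.00093). The laminin genes Lamb1 (-1.48 ± 0.29) and Lama1 (-0.97 ± 0.17) and the nidogen gene Nid2 (-0.52 ± 0.10) fell in DKO, and the fibulin gene Fbln2 rose by 1.40 ± 0.27 (adjusted p = 0.034, 0.019, 0.035 and 0.033). The uncalled differences in Stab1KO and Stab2KO were -1.46 and -1.30 for Lamb1, -0.82 and -0.68 for Lama1, 0.04 and 0.27 for Nid2, and 0.90 and 1.26 for Fbln2. The Lama1 means were 5.08, 4.26, 4.4 and 4.11 in WT, Stab1KO, Stab2KO and DKO. These lie below the array median, where background is not separated from signal. Without DKO replicate 3 the adjusted p-values in DKO were 0.054, 0.037, 0.073 and 0.052. Lama1 lost the call without DKO replicate 1 (adjusted p = 0.051). Lamb1 lost it also without DKO replicate 2, WT replicate 2 or 3 or Stab2KO replicate 1 or 2 (adjusted p = 0.052 to 0.075). Fbln2 lost it without any 1 of 8 arrays (adjusted p = 0.052 to 0.10). With only the compared arrays, Lama1, Lamb1 and Fbln2 all lost it (adjusted p = 0.13 to 0.17). Nid2 was followed only without DKO replicate 3, and whether its call held under the other alternatives was not looked at. Stellate markers fell in the same groups as Ecm1 and Mmp2, and the part of those cells in these falls was not tested.

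Of 16 heparan sulfate-binding ligands, 0 rose and 1 fell in Stab1KO, 0 rose and 2 fell in Stab2KO, and 1 rose and 2 fell in DKO. The chemokine gene Cxcl12 measured 9.51 in WT, 7.09 in Stab1KO, 7.81 in Stab2KO and 6.99 in DKO and fell in all 3 (limma adjusted p = 0.00033, 0.0062 and 0.00012). The DKO difference was -2.50 without DKO replicate 3 (adjusted p = 0.00067). The hepatocyte growth factor gene Hgf fell by 0.98 ± 0.16 in Stab2KO (adjusted p = 0.041), a call that was lost without any 1 of 10 arrays and with only the compared arrays. Its differences in Stab1KO and DKO were -0.44 and -0.66 (adjusted p = 1.0 and 0.075). The stellate list was 7.65 to 8.17 in WT, 6.05 to 6.40 in Stab1KO, 6.59 to 6.67 in Stab2KO and 6.08 to 6.35 in DKO, and the part of stellate cells in the falls of Cxcl12 and Hgf was not tested. The fibroblast growth factor gene Fgf1 fell in DKO by 0.84 ± 0.13 (adjusted p = 0.01), a call lost with only the compared arrays (adjusted p = 0.091). The difference was -0.74 without DKO replicate 3 (adjusted p = 0.02). The differences in Stab1KO and Stab2KO were -0.31 and -0.40 (adjusted p = 1.0 and 0.43). Vegfa, the endothelial growth factor gene, rose in DKO by 1.47 ± 0.23 (adjusted p = 0.012), and lost the call without WT replicate 2 (adjusted p = 0.068). The difference was 1.43 without DKO replicate 3 (adjusted p = 0.026), and in Stab1KO and Stab2KO it was -0.03 and 0.11.

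**Figure D4:**
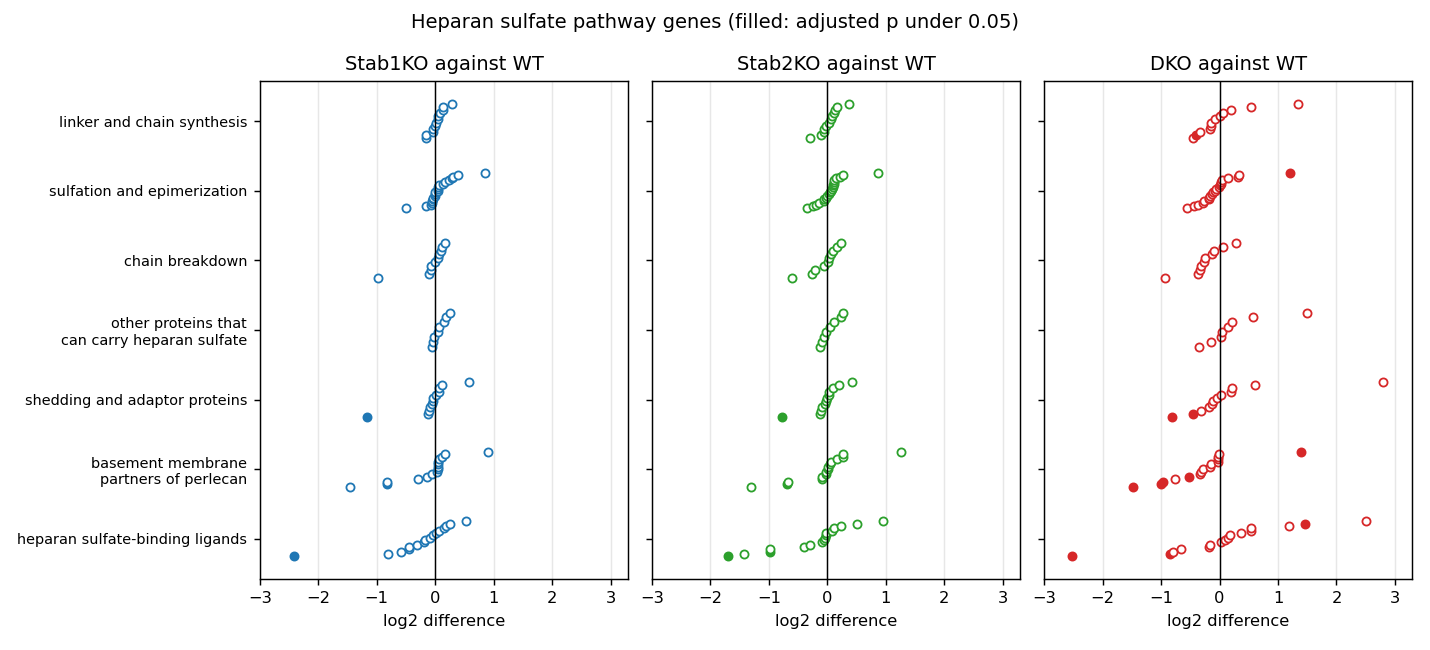
Log2 differences from WT (horizontal axis) of the 94 measured genes of 7 heparan sulfate pathway lists (vertical axis), 1 point per gene, in Stab1KO, Stab2KO and DKO; filled points have an adjusted p under 0.05. Cxcl12 is the leftmost filled point in each panel. In DKO 14 of 15 basement membrane partners lie left of 0, some at -0.03 to -0.01, or 10 of 15 without DKO replicate 3.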

How the data were processed

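RNA of 12 pools of LSECs was hybridised to arrays. The deposited values are log2 intensities summarised by the authors with RMA, per the submitters' processing notes. The version of RMA, the probe definition and the genome build are not given here. RMA normalizes by quantiles, so a shift common to all genes cannot be seen. Of 24973 rows, 24015 had 1 symbol in the platform annotation, 0 several, and 958 were unnamed; the row with the highest mean was kept per symbol, which left out 4. limma 3.58.1 in R 4.3.3 fitted 1 model of 4 group means, with 7 contrasts, two-sided tests and adjustment over 24011 genes; intervals are limma's, at 95%. The fit was tested on simulated data with independent noise, for Stab2KO against WT. It called 46% of changes of 0.5 log2, 78% of changes of 1, 84% of changes of -1 and 98% of changes of 2. Of 164 calls 11 were false. An uncalled difference near 0.5 therefore does not show that a gene is unchanged. Named were the 9 members, both receptors, the 3 genes nearest in pattern to each called member, and up to 4 called genes per pathway list by adjusted p, or the 2 with the largest differences where none was called; Nid2 and Ext1 were added after their values were seen. The members and lists were chosen with earlier results of these data known. Marker lists are given as means per array. The number of arrays limits the precision. Proteins were not used here, and some genes of the lists were not analysed here. Alternatives were a block for the replicate number, a filter on low signal at percentile 40, trend and robust options, array weights, renormalization, every row, the compared arrays only, a threshold of 0.10 and each array left out; the list counts that omit DKO replicate 3 were chosen later, after seeing the data.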

Additional observations from a re-analysis of the deposited data

How the results depend on the processing

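Of 47 differences of the 9 genes, 935 values under the alternatives were computed. Of these values, 900 kept direction and call, 10 lost the call, 9 gained it and 16 changed sign, none of the 16 in a called difference. Most of the 47 differences were not called in the main fit, so most of the 900 are uncalled differences that stayed uncalled. Among the called differences, only Sdc4 and Gpc4 in DKO against WT kept the call in every alternative. With only the compared arrays, the members called fell to 0 in Stab2KO against WT, in DKO against Stab1KO and in DKO against Stab2KO, and Sdc1 in Stab2KO stayed at 0.99 (limma adjusted p = 0.082); fewer arrays then estimate the spread. DKO against Stab2KO called 2 members with the filter, 2 with array weights and 3 at 0.10, and the departure from additivity called 1 with array weights. Leaving out 1 array gave 1 to 2 members in Stab2KO against WT, 0 to 1 in DKO against Stab1KO, 1 to 2 in DKO against Stab2KO and 0 to 1 for additivity; the cause was not tested.

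Sign changes were in small uncalled differences. With array weights Gpc4 differed by -0.025 between DKO and Stab2KO, and Hspg2 from WT by 0.17 in DKO and -0.046 in Stab2KO. Leaving out 1 array gave -0.13 to 0.19 for Gpc3 in Stab1KO, -0.12 to 0.24 for Gpc3 in Stab2KO, -0.045 to 0.14 for Gpc4 between DKO and Stab2KO, -0.15 to 0.22 for Hspg2 in DKO, -0.054 to 0.15 for Hspg2 in Stab1KO, -0.12 to 0.15 for Hspg2 in Stab2KO and -0.096 to 0.0596 for Sdc3 in Stab1KO.

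Over all genes, counts called were 29 with the compared arrays, 148 with array weights and 33 to 92 with 1 array left out for Stab2KO against WT (71), and 97, 1111 and 125 to 510 for DKO against WT (432). They were 18, 466 and 22 to 357 for DKO against Stab1KO (227), 4, 1789 and 45 to 854 for DKO against Stab2KO (822), and 15, 41 and 12 to 43 for Stab2KO against Stab1KO (26). For additivity (12) they were 6 with the replicate block, 28 with the filter, 35 with trend and robust options, 199 with array weights and 3 to 112. For Stab1KO against WT (74) they were 46 to 81 with 1 array left out.

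The replicate numbers were not shown to pair the arrays. Deviations of same-numbered arrays from their group means correlated at -0.064 to 0.291 over 18 pairs (median 0.055). Those of differently numbered arrays correlated at -0.274 to 0.213 over 36 pairs (median -0.038). Of the 12 arrays, 7 correlated best with their own number. With the replicate block, 3 members were called in DKO and 2 in Stab2KO against WT, 1 in DKO against each single knockout, and 0 in the others; Sdc1 in Stab2KO was 0.99 (adjusted p = 0.00817).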
